A study of Mus musculus with 7 samples.

Results

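The 10 genes described here carry the release of calcium in skeletal muscle fibres and its return to store. They are Cacna1s, Ryr1, Jph1, Jph2, Atp2a1, Atp2a2, Sln, Casq1, Casq2 and Pvalb. They were taken by name from the 49671 genes of the deposited count table, so they are 10 of 49671, and all 10 passed the filter on low counts. The mRNA came from whole femurs of mice labelled wild type, crushed entire, so mRNA of attached muscle is sequenced beside that of bone and marrow. There were 4 libraries from mice with a traumatic brain injury (TBI), made 3 days after a controlled cortical impact (a piston blow to the exposed brain), and 3 libraries from mice labelled control, which the series text calls uninjured. The labels give no strain, age, sex or sham surgery, so the impact and the surgery around it cannot be told apart. Replicates are numbered in the labels, with no word on whether each is a separate mouse, so p-values measure only the spread between these libraries, which may be technical. Total counts were 15461528 to 21783534 per library, and 1 count was worth 0.0426 to 0.0630 CPM (counts scaled to a common depth, here by the TMM method, so that libraries of different make-up can be compared).

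When a nerve impulse reaches a muscle fibre it runs inward along the transverse (T) tubules, where a voltage-sensing calcium channel touches the calcium release channel of the sarcoplasmic reticulum (SR), the calcium store of the fibre. Calcium leaves the store, the fibre contracts, soluble buffers take up part of the calcium, and the SERCA pumps return it to the SR, where calsequestrin holds it. Fast and slow fibres use different versions of some of these proteins. SERCA1, calsequestrin-1 and parvalbumin are known from fast fibres, while SERCA2 and calsequestrin-2 are known from slow fibres and heart, and SERCA2 is also made in most other cells.

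RefSeq promoter windows (GRCm38.p6, 250 bases before to 50 after a transcription start) were found for 7 of the 10 genes, 9 windows in all. A window each of 6 genes is shown, for the voltage sensor, the release channel, the fast pump, both calsequestrins and parvalbumin, because matches to muscle regulatory motifs differ among them, from none in Ryr1 to a pair in Cacna1s. They read 5′ to 3′ on the strand of the gene, with capitals at each match to CAGCTG (the core of the E-box bound by the myogenic factors MyoD and myogenin), CATTCC (the TEAD box), a MEF2 site or a CArG box, on either strand.
Cacna1s promoter, chr1:136052561-136052860, plus strand: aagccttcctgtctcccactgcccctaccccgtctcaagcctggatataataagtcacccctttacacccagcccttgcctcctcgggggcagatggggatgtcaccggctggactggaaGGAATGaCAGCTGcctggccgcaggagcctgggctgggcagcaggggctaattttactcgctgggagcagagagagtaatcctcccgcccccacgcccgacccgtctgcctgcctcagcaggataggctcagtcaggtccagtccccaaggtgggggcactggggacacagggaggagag
Ryr1 promoter, chr7:29125102-29125401, minus strand: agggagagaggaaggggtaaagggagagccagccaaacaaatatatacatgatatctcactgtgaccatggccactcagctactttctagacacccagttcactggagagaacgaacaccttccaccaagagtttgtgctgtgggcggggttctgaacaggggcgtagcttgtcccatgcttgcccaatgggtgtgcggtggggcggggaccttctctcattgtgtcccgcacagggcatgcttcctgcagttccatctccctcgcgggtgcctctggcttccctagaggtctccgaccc
Atp2a1 promoter, chr7:126463024-126463323, minus strand: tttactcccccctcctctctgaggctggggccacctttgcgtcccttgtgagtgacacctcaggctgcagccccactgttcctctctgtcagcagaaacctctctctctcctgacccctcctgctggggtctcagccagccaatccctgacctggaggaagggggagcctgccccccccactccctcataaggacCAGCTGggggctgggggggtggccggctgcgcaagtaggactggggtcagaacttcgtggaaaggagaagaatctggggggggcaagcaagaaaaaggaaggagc
Casq1 promoter, chr1:172219846-172220145, minus strand: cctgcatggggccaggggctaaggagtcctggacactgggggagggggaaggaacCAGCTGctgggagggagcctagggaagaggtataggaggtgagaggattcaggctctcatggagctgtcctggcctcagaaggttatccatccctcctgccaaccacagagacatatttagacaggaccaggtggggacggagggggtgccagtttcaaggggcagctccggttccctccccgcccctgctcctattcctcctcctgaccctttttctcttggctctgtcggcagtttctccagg
Casq2 promoter, chr3:102086165-102086464, plus strand: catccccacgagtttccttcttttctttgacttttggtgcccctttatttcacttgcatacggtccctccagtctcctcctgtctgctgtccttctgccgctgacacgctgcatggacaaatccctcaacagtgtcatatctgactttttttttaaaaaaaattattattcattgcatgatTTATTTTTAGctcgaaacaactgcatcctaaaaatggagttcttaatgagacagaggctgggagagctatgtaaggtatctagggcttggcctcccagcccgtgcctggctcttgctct
Pvalb promoter, chr15:78206351-78206650, minus strand: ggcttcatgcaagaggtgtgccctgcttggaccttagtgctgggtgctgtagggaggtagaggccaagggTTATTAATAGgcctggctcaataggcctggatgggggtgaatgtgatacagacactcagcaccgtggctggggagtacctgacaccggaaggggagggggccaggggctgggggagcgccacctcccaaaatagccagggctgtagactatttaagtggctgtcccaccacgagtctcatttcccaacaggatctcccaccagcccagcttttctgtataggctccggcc
CAGCTG stood in 5 of the 9 windows, those of Cacna1s, Atp2a1 and Casq1 and both of Jph2, which overlap, and in 16.3% of all 32851 windows of that length. By gene that is 4 of 7, and 7 of 9 muscle structure genes with a window held it too. In Atp2a1 it began 55 bases before the start, in Cacna1s 123 and in Casq1 195. The broader E-box CANNTG, which every CAGCTG also matches, was in 7 of the 9 windows and in 72.3% of all windows. MEF2 sites stood in 2 of the 9 windows, that of Casq2 and the Pvalb window shown, and in 3.19% of all windows and 1 of 9 muscle structure genes. The second Pvalb window, chr15:78204188-78204487, had no MEF2 site and no E-box core. CATTCC was in 1 of the 9 windows, that of Cacna1s, read on the opposite strand as GGAATG shortly before its CAGCTG, and in 14.7% of all windows and 4 of 9 muscle structure genes. CArG boxes were in 0 of the 9 windows and in 1.63% of all windows. These matches describe the letters only, and whether any factor bound there was not measured.

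For none of the 10 genes was the difference between the groups larger than the spread of the libraries, and in all 10 the groups overlapped. All 10 had a higher estimate in TBI femurs, where 54.4% of all 17144 genes tested did, with a median log2 fold change of 0.60 for the 10 genes against 0.03 for all genes. In edgeR's quasi-likelihood test with Benjamini-Hochberg adjustment over all genes, 0 of the 10 had an adjusted p under 0.05, as had 0 of 17144 genes (0%). At an unadjusted p under 0.05 there were 1259 genes (7.34%), 407 of them higher in TBI (2.37%), and 0 of the 10, while DESeq2 called 102 genes, none of these 10 among them. The median of the 10 was 0.27 without TBI 4, 0.29 without control 1 and 1.08 without control 3. Without TBI 3 and TBI 4 together, the 2 libraries richest in muscle mRNA, it was −0.43 and only 1 of the 10 estimates, that of Sln, was higher. These 2 stood above every other library for all of the 10 genes but Sln, and no control was left out. A lower median was thus fixed by that choice and is no evidence on the injury.

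Library by library, most of these mRNAs moved together. The 10 genes took 0.688%, 0.991%, 2.33% and 2.57% of all counts in TBI 1 to 4, against 0.556%, 1.00% and 1.73% in controls 1 to 3. The share averaged 1.65% ± 0.943 in TBI and 1.096% ± 0.591 in control libraries (SD, n = 4 and 3), a difference of 0.549 percentage points that is smaller than the spread within the TBI libraries. TBI 3 and TBI 4 were above every control, TBI 1 and TBI 2 were below controls 2 and 3, and control 1 was lowest of all. In bulk tissue, a difference in the number of muscle fibres and a difference in mRNA per fibre cannot be told apart. The difference was 0.279 points with control 1 left out, 0.319 with TBI 3 left out and 0.242 with TBI 4 left out. Leaving out TBI 1 or control 3 gave 0.868 and 0.865 points. Atp2a1 alone made up 58.7% to 66.5% of the counts of the 10 genes in TBI libraries and 56.5% to 63.4% in controls.

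**Figure D1:**
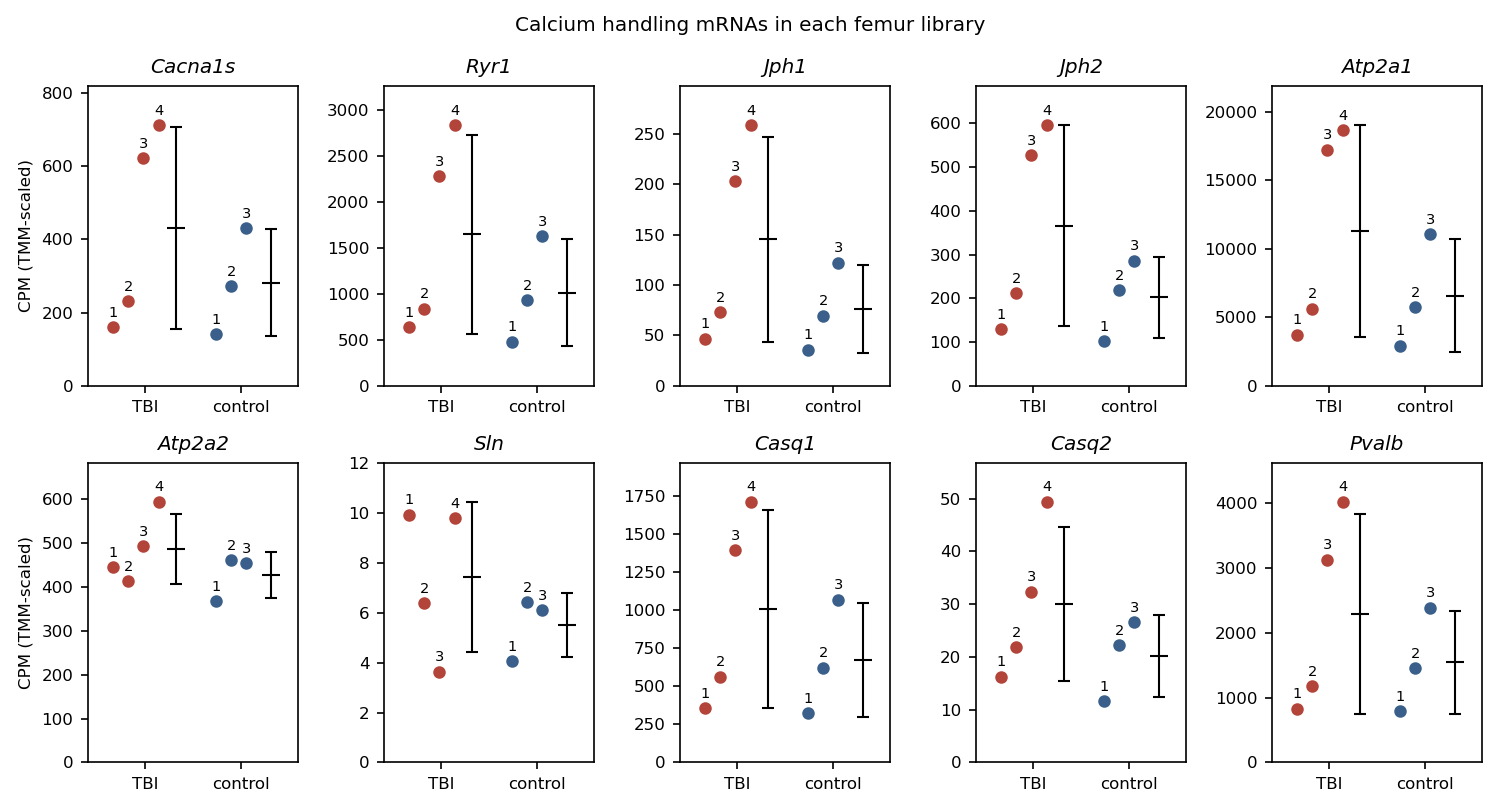
TMM-scaled counts (CPM, linear axes from 0) of the 10 calcium genes in each library, TBI in red and control in blue, with the replicate number above each point and the mean ± SD beside each group. In every panel but that of Sln, TBI 3 and TBI 4 stand above all others, as for Atp2a1 at 17220 and 18658 CPM, and Atp2a2 is the most nearly level.

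Depolarisation is sensed and passed to the store by Cacna1s and Ryr1. Cacna1s (ENSMUSG00000026407, chromosome 1, 136052750 to 136119822, plus strand, GRCm38) encodes the pore-forming subunit of the T-tubule channel that serves as voltage sensor. It had 160.5, 230.4, 621.4 and 711.6 CPM in TBI 1 to 4, against 140.4, 272.2 and 431.1 CPM in controls 1 to 3. TBI 1 and TBI 2 lay inside the control range and TBI 3 and TBI 4 above it. The log2 fold change was 0.62 ± 0.56 (SE, adjusted p = 0.780). Ryr1 (ENSMUSG00000030592, chromosome 7, 29003344 to 29125179, minus strand) encodes the ryanodine receptor of skeletal muscle, the release channel itself. Its levels were 637.7, 838.6, 2279.0 and 2836.9 CPM in TBI libraries, against 479.3, 929.6 and 1630.2 CPM in controls. The same 2 TBI libraries were high, and the groups overlapped (log2 fold change 0.70 ± 0.59, adjusted p = 0.773).

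Per kilobase of exon, with all annotated exons of a gene merged, the sensor and the channel were nearly equal in every femur. That length was 21838 bases for Ryr1 and 6550 for Cacna1s. It may exceed the length of the mRNA made, so ratios between genes are approximate. Ryr1 stood at 1.02 to 1.20 times the level of Cacna1s over the 7 libraries, and was the higher of the pair in 7 of 7. In TPM, a share of all transcripts that also corrects for exonic length, Ryr1 averaged 187 in TBI and 124 in control libraries. Ryr2, the release channel of heart, averaged 0.0272 TPM in TBI and 0.0226 TPM in control libraries, and Ryr3 0.0730 TPM in TBI and 0.0390 TPM in control libraries. Both missed the filter on low counts and were not tested. Ryr2 and Ryr3 belong to the list of general calcium genes but fall outside the rule for named genes and were chosen after their values were seen.

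The junctophilins hold the T tubule and the SR membrane at a fixed small distance, with Jph1 known from skeletal muscle and Jph2 from skeletal muscle and heart. They had the highest fold change estimates of the 10 genes. Jph1 (ENSMUSG00000042686, chromosome 1, 16964560 to 17097889, minus strand) measured 46.7, 73.0, 203.2 and 258.6 CPM in TBI 1 to 4, against 35.8, 69.5 and 122.3 CPM in controls 1 to 3. TBI 4 held 7.22 times the level of control 1, the widest range among the 10, yet TBI 1 lay below controls 2 and 3. The estimate was 0.94 ± 0.62 (adjusted p = 0.763). Jph2 (ENSMUSG00000017817, chromosome 2, 163336242 to 163397993, minus strand) measured 129.2, 211.1, 527.3 and 595.1 CPM in TBI libraries, against 102.4, 218.9 and 286.2 CPM in controls. Its estimate was 0.85 ± 0.55 (adjusted p = 0.763).

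The SERCA pumps return calcium to the SR. Atp2a1 (ENSMUSG00000030730, chromosome 7, 126445858 to 126463108, minus strand), which encodes SERCA1 of fast fibres, was the most abundant of the 10 mRNAs, per length as well as in counts. It reached 3742.8, 5629.4, 17220.1 and 18657.9 CPM in TBI 1 to 4, against 2928.6, 5739.8 and 11086.0 CPM in controls 1 to 3. That is a 6.37-fold range between TBI 4 and control 1, and a 4.98-fold range within the TBI group. The log2 fold change of 0.78 ± 0.66 was not called (adjusted p = 0.773). Without TBI 3 and TBI 4 it was −0.52.

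Atp2a2 (ENSMUSG00000029467, chromosome 5, 122453513 to 122502225, minus strand), which encodes SERCA2, was the steadiest of the 10. Its levels were 445.0, 412.4, 492.6 and 594.4 CPM in TBI libraries, against 367.1, 460.4 and 453.7 CPM in controls. The highest library stood only 1.62 times above the lowest, and TBI 2 lay below 2 of the 3 controls. The estimate was 0.19 ± 0.17 (adjusted p = 0.783). Counts per gene do not separate its muscle form from the form of other cells.

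Sln encodes sarcolipin, a small SR membrane peptide that binds the SERCA pumps and lowers their transport of calcium. Sln (ENSMUSG00000042045, chromosome 9, 53850164 to 53854560, plus strand) was the scarcest of the 10, and its order of libraries differed from all others. It had 9.95, 6.39, 3.63 and 9.80 CPM in TBI 1 to 4, from 229, 150, 67 and 186 counts, against 4.06, 6.43 and 6.10 CPM in controls 1 to 3. TBI 3, which was second highest for Atp2a1, Casq1 and Pvalb, had the lowest Sln of all 7 libraries, and TBI 1 had the highest. The estimate was 0.43 ± 0.35 (adjusted p = 0.771), and it was the only one of the 10 to stay higher without TBI 3 and TBI 4.

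Inside the store, calsequestrin binds calcium with low affinity and high capacity. Casq1 (ENSMUSG00000007122, chromosome 1, 172209894 to 172219868, minus strand), the calsequestrin of fast fibres, had 358.6, 563.9, 1397.9 and 1716.1 CPM in TBI 1 to 4, against 323.2, 622.2 and 1069.7 CPM in controls 1 to 3. Its order of libraries matched that of Cacna1s and Ryr1, and its estimate was 0.59 ± 0.58 (adjusted p = 0.795). Casq2 (ENSMUSG00000027861, chromosome 3, 102086415 to 102146514, plus strand), the form of slow fibres and heart, had 16.2, 21.9, 32.4 and 49.4 CPM in TBI libraries, against 11.6, 22.2 and 26.6 CPM in controls. TBI 4 again was highest and control 1 lowest, over a 4.28-fold range, and the estimate was 0.57 ± 0.40 (adjusted p = 0.763).

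Parvalbumin, encoded by Pvalb (ENSMUSG00000005716, chromosome 15, 78191114 to 78206400, minus strand), is a soluble protein of fast fibres that binds calcium in the cytosol and speeds relaxation. Its mRNA measured 829.6, 1176.6, 3133.0 and 4027.2 CPM in TBI 1 to 4, against 792.2, 1452.8 and 2386.9 CPM in controls 1 to 3. TBI 2 lay below 2 controls and TBI 3 and TBI 4 above all of them. The estimate was 0.57 ± 0.59 (adjusted p = 0.802).

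Single libraries moved every one of these estimates by more than 1.5 times, with 0 calls gained. Leaving out TBI 4 gave 0.15 for Pvalb, 0.20 for Casq1, 0.22 for Casq2, 0.26 for Cacna1s, 0.28 for Sln, 0.31 for Ryr1, 0.43 for Atp2a1, 0.50 for Jph1, 0.51 for Jph2 and 0.0759 for Atp2a2. Leaving out control 1 gave 0.25 for Casq1 and Sln, 0.26 for Pvalb, 0.29 for Casq2 and Cacna1s, 0.36 for Ryr1, 0.43 for Atp2a1, 0.53 for Jph2, 0.60 for Jph1 and 0.0889 for Atp2a2. Estimates were larger with control 3 left out, at 1.03 for Pvalb, 1.06 for Cacna1s, 1.09 for Casq1, 1.23 for Ryr1, 1.38 for Atp2a1 and 1.46 for Jph1. Without TBI 3, Cacna1s and Casq1 were at 0.39, Atp2a1 at 0.51 and Sln at 0.66, and without TBI 1 Sln was at 0.26.

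In TPM, Atp2a1 led with a median of 4681 over the 7 libraries, followed by Pvalb at 3785 and Casq1 at 865. Each of these was above the next in 7 of 7 libraries. Atp2a2 came next at 196, Jph2 at 143, Ryr1 at 115.5 and Cacna1s at 113, then Jph1 at 42.2, Casq2 at 23.1 and Sln at 13.2. Some neighbours in that order were not separate in every library: Atp2a2 exceeded Jph2 in 5 of 7, Jph2 exceeded Ryr1 in 6 of 7 and Casq2 exceeded Sln in 6 of 7. The order of close neighbours also depends on the exonic lengths used. The pump and the cytosolic buffer were thus present at levels far above those of the release channel and its sensor in every femur. Among the most abundant muscle mRNAs, Acta1, skeletal actin, had a median of 11766.5 TPM, and Ckm, muscle creatine kinase, 3562.5 TPM.

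**Figure D2:**
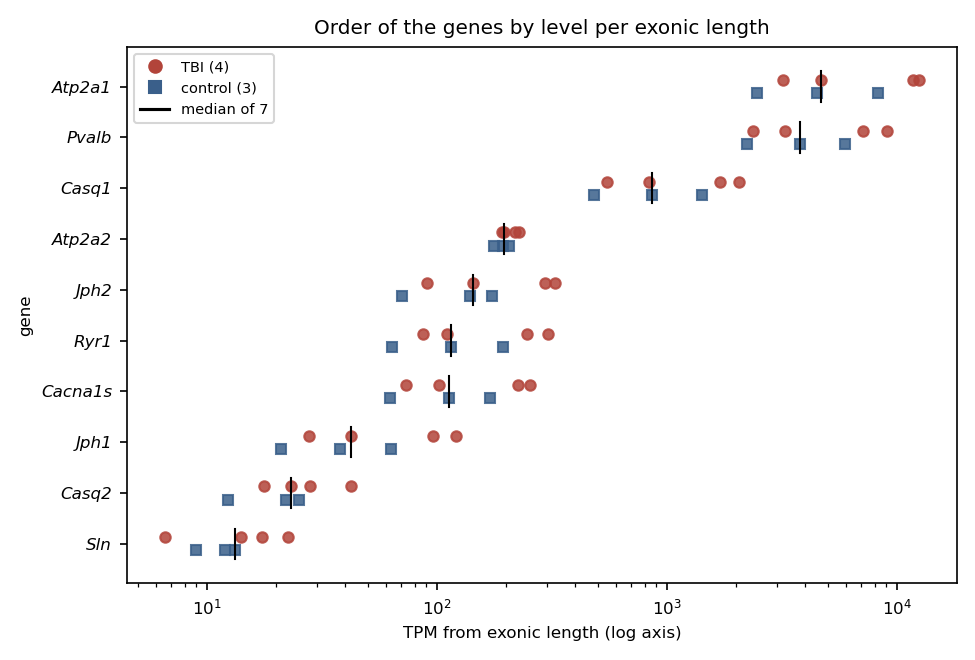
Transcript share corrected for length (TPM, log axis) of the 10 genes, ordered by their median over the 7 libraries (black ticks), with 4 TBI libraries as red circles and 3 control libraries as blue squares. The order runs from Atp2a1 at a median of 4681 to Sln at 13.2, and the red and blue points overlap in every row.

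A separate list of 15 muscle structure genes (Acta1, Ckm, fast troponins, myosin light chains, Neb, Ttn and others), which holds none of the 10, tracked the amount of muscle mRNA in each femur. It took 1.92%, 3.09%, 6.12% and 7.66% of counts in TBI 1 to 4, against 1.57%, 3.01% and 4.70% in controls 1 to 3. Against every 100 counts of this list, the 10 calcium genes had 35.8, 32.0, 38.2 and 33.5 counts in TBI libraries, against 35.4, 33.4 and 36.8 in controls. Their share relative to the muscle list was nearly level, while their share of all counts differed between libraries as given above. The part that the amount of muscle has in the fold changes was not tested. The fit that follows cannot test it, because its covariate would also take up a shared change in mRNA per fibre.

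A further edgeR fit had the mean log2 CPM of the muscle structure list as a covariate. In it the estimates of all of the 10 genes but Sln were nearer to 0, and the errors of all 10 were smaller. Ryr1 was at 0.01 ± 0.10, Atp2a1 at 0.02 ± 0.12, Cacna1s at −0.09 ± 0.09 and Casq1 at −0.12 ± 0.09 (SE). Jph1 and Jph2 were both at 0.14, with SEs of 0.09 and 0.10. Casq2 was at 0.14 ± 0.13, Atp2a2 at 0.08 ± 0.10 and Sln at 0.44 ± 0.34. The median of the 10 was 0.05 and 7 of 10 estimates were higher. In this fit 0 of the 10 and 0 of 17144 genes (0%) had an adjusted p under 0.05, and 2800 genes (16.3%) but 0 of the 10 had an unadjusted p under 0.05.

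**Figure D3:**
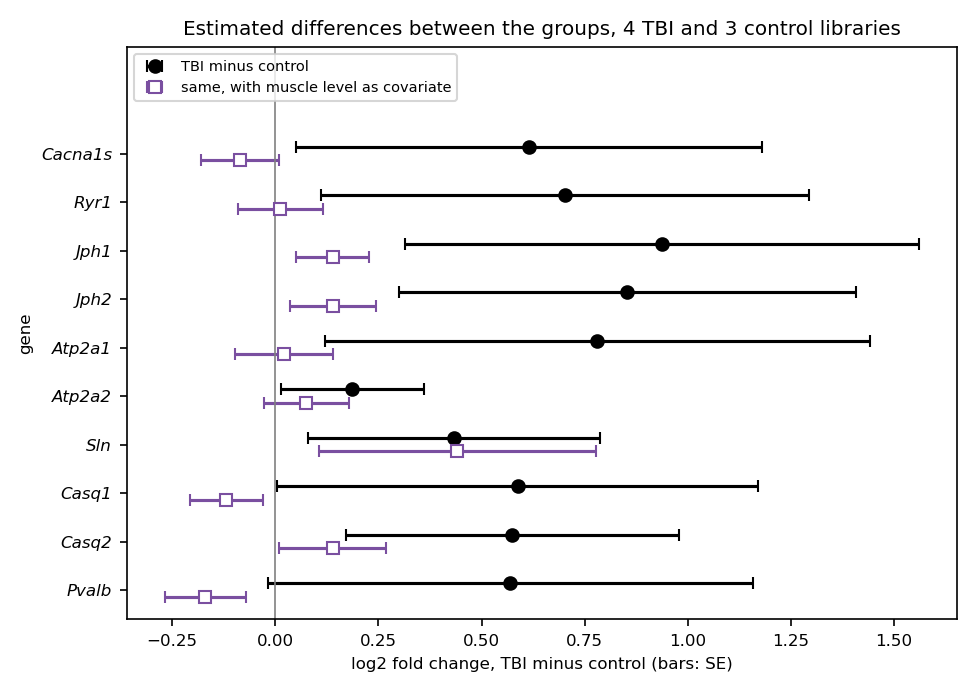
Estimated log2 fold change of each gene, TBI minus control, with bars of ± 1 SE, from the fit without a covariate (black circles) and with the muscle structure level as covariate (open purple squares). The circles run from 0.19 (Atp2a2) to 0.94 (Jph1) with long bars, and the squares from −0.17 (Pvalb) to 0.44 (Sln), with the shortest bars for Casq1 and Jph1 at 0.09.

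Beside the muscle level, Pvalb was the one gene of the 10 whose groups did not overlap. Its log2 CPM minus the mean log2 CPM of the muscle list was −0.18, −0.35, −0.14 and −0.17 in TBI 1 to 4, against 0.02, −0.10 and −0.05 in controls 1 to 3. All 4 TBI libraries were below all 3 controls, with means of −0.21 ± 0.09 in TBI and −0.04 ± 0.06 in control libraries (SD). Of all 17144 genes, 144 lay wholly below by this measure (0.840%) and 20 wholly above (0.117%). Genes of muscle are the closer comparison. Among the 15 muscle structure genes there was 1 without overlap, Mylpf, above in TBI, and among 18 accessory genes of the SR and T tubule there were 3, namely Cacng1 and Mrln below and Dhrs7c above (Mylpf, Cacng1 and Mrln are named after their values were seen). In the covariate fit Pvalb was at −0.17 ± 0.10 (adjusted p = 0.438), and between −0.21 and −0.13 as single libraries were left out.

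**Figure D4:**
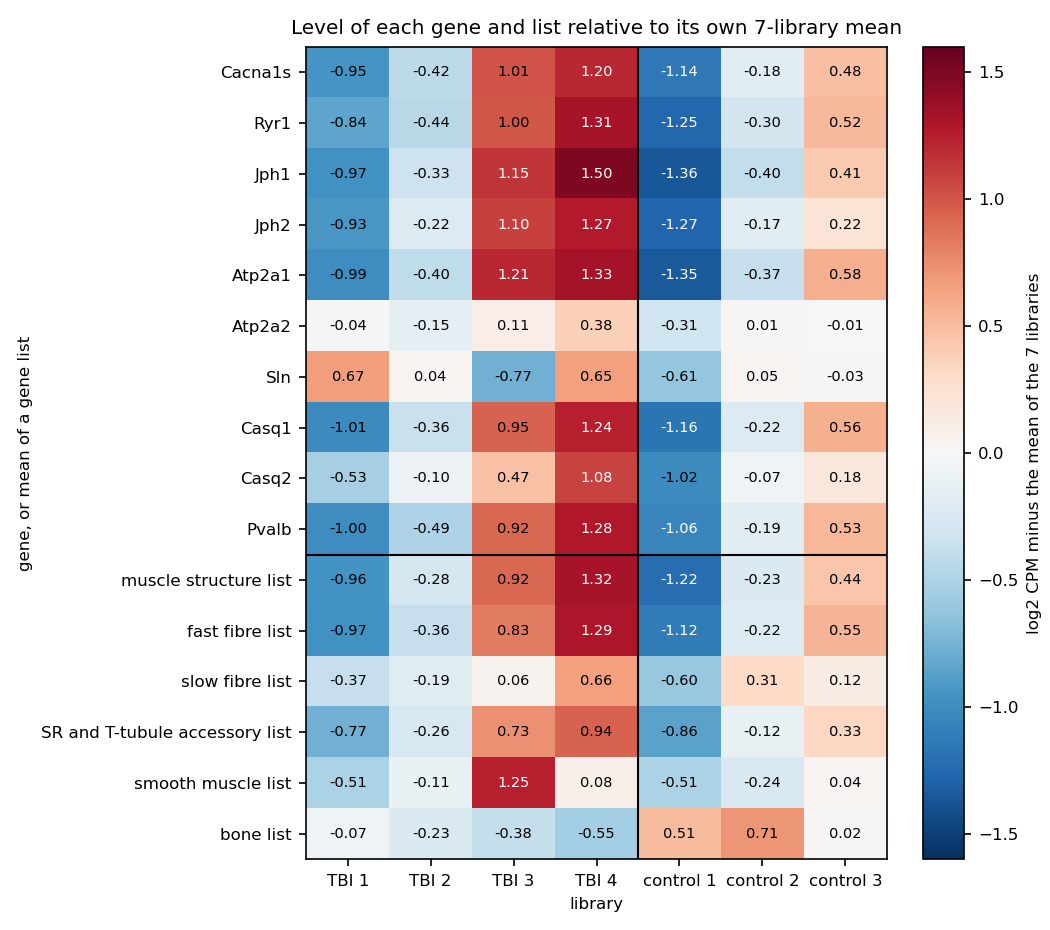
Each cell gives the log2 CPM of a gene, or the mean log2 CPM of a list, in a library minus its mean over the 7 libraries, with red above and blue below that mean, TBI libraries left of the black line and control libraries right of it. The fast-type genes, Casq2 and the muscle structure, fast fibre and SR rows share a pattern with high TBI 3, TBI 4 and control 3, whereas Atp2a2 spans only −0.31 to 0.38 and Sln is at −0.77 in TBI 3.

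Among themselves the 10 genes fell into a tight set of 7 and 3 others. The spread of a gene about the muscle level (the SD over 7 libraries of its log2 difference from the list) was 0.07 for Casq1, 0.09 for Cacna1s, 0.10 for Ryr1, 0.12 for Pvalb, 0.12 for Jph2, 0.15 for Jph1 and 0.16 for Atp2a1. It was 0.32 for Casq2, 0.76 for Atp2a2 and 1.06 for Sln. Set against the mean of 7 slow fibre genes instead, the spread was 0.25 for Atp2a2, 0.34 for Casq2 and 0.57 for Sln, and 0.61 to 0.76 for the other 7. The slow list itself moved less between libraries than the muscle list. The log2 CPM of Atp2a2 and Sln alone had SDs of 0.22 and 0.56, no larger than about the slow list. For Atp2a2 and Sln, no following of slow fibre genes is thus shown. Casq2 alone had an SD of 0.68, larger than its similar spreads about the slow and the muscle list. These are descriptions over the same 7 libraries, which differ in their share of muscle mRNA, with no test.

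The tightest pair of all 45 was Casq1 with Cacna1s, whose log2 ratio had an SD of 0.06 over the 7 libraries, with 7.50 to 8.33 Casq1 mRNAs per Cacna1s mRNA by length. Among the 21 pairs of the 7 tight genes the SD was at most 0.21, and among all 45 pairs at most 1.18. The 7 were set apart by their small spread about the muscle list in these libraries, which by itself keeps their pair SDs small. In 5 of the 45 pairs (11.1%) the ratio was without overlap between the groups, and in 7 of the 105 pairs of muscle structure genes (6.67%). Ryr1 over Pvalb was higher in every TBI library, while Cacna1s over Jph2 and Casq1, Cacna1s and Pvalb over Jph1 were lower in every TBI library. For Casq1 over Jph1 the mean log2 ratio of counts was 2.85 in TBI and 3.15 in control libraries, and for Pvalb over Jph1 it was 4.02 in TBI and 4.38 in control libraries. Since 4 of the 5 pairs share a junctophilin and all share libraries, they are not independent of each other.

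Ratios between paralogues inside a library cancel its depth. SERCA1 mRNA exceeded SERCA2 mRNA in every femur, at 14.7, 23.9, 61.1 and 54.9 times per exonic length in TBI 1 to 4, against 13.9, 21.8 and 42.7 times in controls 1 to 3. The ratio was highest in TBI 3 and TBI 4, then in control 3, the libraries with the most muscle mRNA. The log2 ratio of Atp2a1 to Atp2a2 counts averaged 4.24 ± 0.98 in TBI and 3.75 ± 0.81 in control libraries (SD, n = 4 and 3), a difference of 0.49 (two-sided exact permutation p = 0.457, 0.8 after adjustment over 3 ratios). Leaving out control 1, TBI 3 or TBI 4 gave 0.11, 0.19 and 0.24, leaving out TBI 1 or control 3 gave 0.87 and 0.92, and leaving out both TBI 3 and TBI 4 gave −0.33. With 35 splits of 7 libraries the smallest p this test allows is 0.0571.

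Calsequestrin-1 mRNA was 30.9, 36.1, 60.6 and 48.7 times that of calsequestrin-2 per length in TBI libraries, against 39.2, 39.2 and 56.4 times in controls. The log2 ratio of counts averaged 4.93 ± 0.43 in TBI and 4.98 ± 0.30 in control libraries, a difference of −0.06 (exact permutation p = 0.8, adjusted 0.8) that turned positive without TBI 1, TBI 2 or control 3, with values of 0.10, 0.02 and 0.12. Jph1 stood at 0.307, 0.294, 0.328 and 0.370 of Jph2 per length in TBI libraries, against 0.298, 0.271 and 0.364 in controls. The log2 ratio of counts averaged −1.40 ± 0.14 in TBI and −1.47 ± 0.22 in control libraries, a difference of 0.07 (exact permutation p = 0.571, adjusted 0.8) that was −0.02 without control 2. Leaving out control 3, TBI 2 or TBI 4 gave 0.19, 0.12 and 0.0063.

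**Figure D5:**
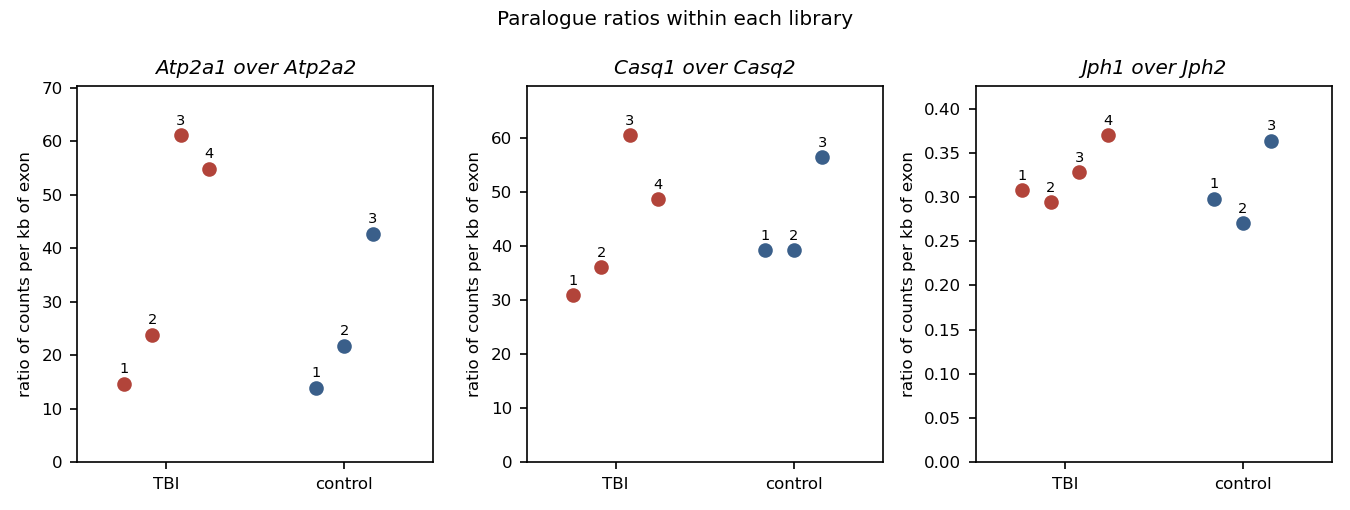
Ratio of counts per kilobase of exon of Atp2a1 over Atp2a2, Casq1 over Casq2 and Jph1 over Jph2 in each library (linear axes from 0), TBI in red and control in blue, with the replicate number above each point. The SERCA ratio is highest in TBI 3 at 61.1 and lowest in control 1 at 13.9, while the junctophilin ratio stays between 0.271 and 0.370, and the groups overlap in all 3 panels.

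Genes that assist the release and uptake machinery also had mostly higher estimates, and none of them was called. Of 18 matched accessory genes of the SR and T tubule, 17 had a higher estimate in TBI and 0 passed the test, with a median of 0.54, and −0.02 with the muscle covariate. Dhrs7c, an SR membrane dehydrogenase, averaged 81.5 ± 56.0 CPM in TBI and 39.9 ± 21.9 CPM in control libraries (SD), with a log2 fold change of 1.03 ± 0.62 (SE, adjusted p = 0.759). Cacnb1, the β subunit that anchors the voltage sensor, was at 0.74 ± 0.49, and Stac3, an adaptor needed for coupling the sensor to Ryr1, at 0.67 ± 0.51. Tmem38a, the TRIC-A channel that carries potassium against the calcium current, was at 0.72 ± 0.56, the SR calcium-binding protein Hrc at 0.70 ± 0.54 and the calcium sensor S100a1 at 0.39 ± 0.25. Relative to the muscle list, Tmem38a and Hrc had spreads of only 0.06 each.

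Among fibre-type genes, the median estimate was 0.69 for the fast list and 0.09 for the slow list, and single genes of the lists crossed. The 4 fast fibre genes all had higher estimates, with Myh4 (the fastest myosin heavy chain) at 0.86 ± 0.71, Mybpc2 at 0.78 ± 0.69, Myh1 at 0.60 ± 0.54 and Myh2 at 0.11 ± 0.43. The 7 slow fibre genes had 5 higher and 2 lower estimates, with Myh7, the slow myosin heavy chain, at 0.34 ± 0.33, Myoz2 at 0.23 ± 0.34 and Myl3 at 0.18 ± 0.41, all above the fast gene Myh2. None of these genes passed the test. The muscle structure list had 15 of 15 higher and 0 called, with a median of 0.74.

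Calcium pumps and channels used by cells in general summed to 1284.6 to 1626.5 CPM in TBI and 1280.0 to 1462.3 CPM in control libraries, a narrower range than that of the muscle genes. Of 19 such genes 17 were tested, 11 had a higher estimate (median 0.13), 0 passed the adjusted threshold and 5 had an unadjusted p under 0.05 (7.34% of all genes did). In CPM, every TBI library was above every control for 3 of the 17, against 2.66% of all genes, and below for 1, against 5.38%. Itpr3, an IP3-gated calcium release channel of the endoplasmic reticulum, measured 25.2, 26.5, 23.2 and 24.5 CPM in TBI libraries, against 30.3, 32.3 and 37.3 CPM in controls, a log2 fold change of −0.42 ± 0.12 (adjusted p = 0.484). Mcu, the pore of the mitochondrial calcium uniporter, measured 40.3, 42.5, 38.1 and 48.8 CPM in TBI libraries, against 32.3, 35.2 and 35.3 CPM in controls, a log2 fold change of 0.31 ± 0.12 (adjusted p = 0.633). In TPM, Mcu in TBI 3 was at 13.0, below the controls at 13.2 to 13.8, so its separation depends on the scaling. The same held for Orai1, another of the 3, named after its values were seen. In TBI 3 it was at 24.8 TPM, below the controls at 24.9 to 26.3. Slc8a1, the sodium-calcium exchanger of the surface membrane, had a higher level in every TBI library than in any control (0.52 ± 0.22, adjusted p = 0.670). It rested on only 47 to 97 counts per library. Tmem38b, the TRIC-B channel, was at 0.63 ± 0.26 (adjusted p = 0.664).

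Markers of other cells moved between libraries as well. Among 6 heart markers, Myl7 had 0 counts in all 7 libraries and Nppa had 4 counts in TBI 2 and 0 elsewhere, and the list summed to 11.7 to 21.4 CPM in TBI and 15.2 to 23.6 CPM in control libraries. Myl4, an atrial light chain, had 6.18 to 14.5 CPM in TBI and 10.3 to 16.4 CPM in control libraries. Myh6 had 1.17 to 4.22 CPM in TBI and 0.542 to 2.45 CPM in control libraries. Tnni3 had 0.843 to 2.81 CPM in TBI and 1.76 to 2.62 CPM in control libraries, and Tnnt2 0.565 to 2.47 CPM in TBI and 1.64 to 2.61 CPM in control libraries. Whether heart-type mRNA had a part in the values of Casq2, Jph2 and Atp2a2 was not tested. The 6 markers of smooth muscle, whose cells use SERCA2 too, summed to 221 to 596 CPM in TBI and 210 to 307 CPM in control libraries, with the 596 in TBI 3, 6 of 6 higher and 0 called. Genes of adipocytes (5 of 5) and neutrophils (6 of 6) had higher estimates, and those of bone (0 of 7), cartilage (0 of 6), B cells (0 of 5) and red-cell precursors (0 of 6) lower ones, with 0 called on each list. Schwann and nerve markers had 4 of 6 higher, and muscle stem and regeneration markers 2 of 6, at summed levels of 9.60 to 21.6 CPM in TBI and 6.81 to 27.8 CPM in control libraries. For the bone matrix, Col1a1 was at −0.72 ± 0.28 (adjusted p = 0.648), Ibsp at −0.75 ± 0.21 (adjusted p = 0.484) and Bglap at −0.97 ± 0.22 (adjusted p = 0.423). Acta1 and Ckm were at 0.59 ± 0.59 and 0.89 ± 0.65. The part of these cells in the values of Atp2a2 and Sln was not tested.

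Of 11438 protein-coding genes with a mean of at least 5 CPM, those whose log2 level kept the most constant distance from the mean of the 10 over the 7 libraries were Myom1, Adssl1, Kbtbd12, Cand2 and Lmod3. The SD of that distance was 0.07 for Myom1, which encodes myomesin of the sarcomere's M band, 0.07 for the muscle adenylosuccinate synthase gene Adssl1, 0.08 for Kbtbd12 and Cand2 and 0.09 for Lmod3, the thin-filament protein leiomodin-3. The median over all genes compared was 0.82. Their log2 fold changes lay between 0.50 and 0.59, none of them called.

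Some of the 10 genes share exonic sequence with a gene on the opposite strand. Rabep2 overlaps 21.9% of the exonic length of Atp2a1 and had 464 to 711 counts per library, against 64890 or more of Atp2a1. The antisense genes Gm37759 and Gm17224 overlap 1309 of 6550 exonic bases of Cacna1s and 156 of 1951 of Casq1, and had at most 14 and 37 counts. The library kit keeps strand, but the strand setting of the counting is not stated in the labels or headers, so reads in these stretches cannot be assigned with certainty.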

How the data were processed

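RNA of crushed femurs was made into stranded mRNA libraries, per the labels' protocols. The authors deposited raw read counts per Ensembl gene and, for part of the genes, normalized values judged from the values to be on a log2 scale. The submitters' processing notes name STAR, DESeq and the GRCm38 build with no version numbers, and neither they nor the labels name the counting program.

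Symbols, coordinates and exonic lengths came from GENCODE M21, which matched 49412 of 49671 identifiers. Strit1 was not matched and is not analysed here. Counts were filtered with filterByExpr (17144 genes kept), scaled by TMM and tested with edgeR 4.0.16 (glmQLFit, glmQLFTest) in R 4.3.3, with Benjamini-Hochberg adjustment over all genes and a threshold of 0.05. CPM use TMM-scaled library sizes, log2 CPM adds 0.5 counts, and TPM use exonic length, with all annotated exons of a gene merged. SEs were derived from the estimate and its F statistic. Paralogue ratios were compared by two-sided exact permutation over 35 splits. The procedure was tested on simulated counts. Within each group, counts of every pair of libraries were further apart than counting noise (chi-square per degree of freedom of at least 27.2), so no library was treated as deposited 2 times. This says nothing on whether they came from separate mice.

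The 10 genes and the lists were chosen with earlier results of these data known. Named beyond the 10 were up to 4 genes of smallest p per list on muscle fibre types and general calcium handling (6 of the accessory list), the 5 genes most like the mean of the 10, and Acta1, Ckm, Col1a1, Bglap and Ibsp. Of the other cell type lists, counts and medians or sums are given. The heart markers are the exception, as all 6 are named with their levels, outside this rule. Alternatives were other scalings, filters and tools (DESeq2 1.42.0, limma 3.58.1), the deposited log2 values, a replicate block, a muscle covariate and libraries left out. No batch is named in the labels. Precision rests on counts, and intervals cover spread between libraries only.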

Additional observations from a re-analysis of the deposited data

How the results depend on the processing

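Single estimates of the 10 genes kept their direction and stayed uncalled in 168 of 180 recalculations, with adjusted p between 0.333 and 0.987 over 19 settings, and turned in 12. Among the settings was the main fit read at a threshold of 0.1, where no direction could turn. DESeq2 called 102 genes (9 higher, 93 lower), where every other setting called 0, and the only named gene it called was Bglap (−0.96, adjusted p = 0.0149). Without TBI 3 and TBI 4 the median of the 10 was −0.43, with Pvalb at −0.65, Casq1 at −0.57, Cacna1s at −0.55, Atp2a1 at −0.52, Ryr1 at −0.49, Jph1 at −0.37, Jph2 at −0.28, Casq2 at −0.10 and Atp2a2 at −0.0182. Other muscle genes turned with them there: Mybpc2 −0.78, Myh4 −0.68, Myh2 −0.49, Acta1 −0.44, Ckm −0.40, Lmod3 −0.39, Myom1 −0.38, Cand2 −0.34, Tmem38a −0.33, Stac3 −0.33, Hrc −0.33, Adssl1 −0.29, Kbtbd12 −0.29, Myh1 −0.29, Dhrs7c −0.26, Myoz2 −0.25, Cacnb1 −0.24, Myh7 −0.11 and S100a1 −0.0053. The log2 ratios Atp2a1 to Atp2a2 and Jph1 to Jph2 were then −0.33 and −0.0354. With the muscle covariate Pvalb was at −0.17, Casq1 at −0.12, Cacna1s at −0.0861, Myh2 at −0.32, Mybpc2 at −0.12, Myoz2 at −0.11, Myh4 at −0.0579, Lmod3 at −0.0567, Acta1 at −0.0464, Cand2 at −0.0265 and Myom1 at −0.0209. The cause of these changes was not tested. Leaving out TBI 3 and TBI 4, but no control, took away the highest TBI libraries of most of these genes. Lower estimates for them were thus fixed by that choice.

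As single libraries were left out, the log2 ratio differences ran from 0.11 to 0.92 for Atp2a1 to Atp2a2, −0.22 to 0.12 for Casq1 to Casq2 and −0.0239 to 0.19 for Jph1 to Jph2. The estimates ran from −0.26 to 0.38 for Myh2 and from −0.0341 to 0.42 for Myoz2. Leave-one-out fits of the muscle covariate, and its limma-voom fit for Pvalb (−0.17), were chosen after seeing the data and called 0 of the 10.

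The labels do not say whether replicate numbers pair the libraries. Deviations of same-numbered libraries correlated at 0.549, −0.0277 and 0.322, and 4 of 6 libraries correlated best with their own number, a hint from the data and not the design. The share of the muscle structure list also rose with the replicate number in each group. TBI 4 has no same-numbered control, so it adds nothing to the group difference in a fit with replicate blocks. With the replicate block the median of the 10 was 0.22, 0 genes were called, Jph1 was at 0.40 ± 0.13 (adjusted p = 0.333) and Myh2 at −0.22.

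With 4 and 3 libraries whose share of muscle mRNA spans several fold, the SEs of the 10 genes were 0.17 to 0.66 on the log2 scale. In edgeR, estimates larger in size than their SE were not called, as for Jph1 at 0.94 ± 0.62 and Bglap at −0.97 ± 0.22. The smallest difference that could be called at this spread was not worked out. Since Bglap was not called, nor any of the 17144 genes, it lies far above 1 SE. The absence of calls among the 10 genes therefore does not show that they were unchanged. Sln rests on 67 to 229 counts in TBI libraries, the thinnest support of the 10.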
